A study of Mus musculus with 6 samples.

Results

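The genes examined here supply the building blocks of glycosaminoglycans, the long sugar chains of cartilage and other connective tissues. They are 9 genes in 3 groups: the sulfate supply genes Slc26a2, Papss1, Papss2 and Slc35b2, the UDP-sugar enzymes Ugdh and Uxs1, and the hyaluronan synthases Has1, Has2 and Has3. Members were all probe sets, a group of oligonucleotides that measures a transcript, for which the platform annotation gave exactly 1 gene symbol and that symbol was one of the 9. This gave 18 probe sets of the 34945 with a single symbol and of 45101 on the array. Expression was measured in sorted bone marrow of 3 Grem1;TdTomato mice on a C57BL/6J background, aged 6 to 8 weeks, all of which received tamoxifen by mouth. The Grem1+ group is the fraction sorted for Grem1 cells, with 1 array per mouse (n = 3). The Grem1- group is the fraction of the same 3 mice that had not recombined and was negative for CD45, CD31 and Ter-119, again with 1 array per mouse (n = 3). The labels give that gate for Grem1- alone, and they describe neither the allele that drives recombination nor how many cells were sorted.

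Sulfate enters a cell through plasma membrane transporters such as SLC26A2, is activated in the cytosol to the sulfate donor PAPS by the PAPS synthases PAPSS1 and PAPSS2, and PAPS is carried into the Golgi by SLC35B2, where sulfotransferases place the sulfate on chondroitin and heparan sulfate chains. UGDH oxidises UDP-glucose to UDP-glucuronic acid, which is a building block of these chains and of hyaluronan, and UXS1 converts part of it to UDP-xylose, the sugar that starts every chondroitin and heparan sulfate chain on its core protein. Hyaluronan is unsulfated and is made at the plasma membrane by the HAS enzymes from UDP-glucuronic acid and UDP-N-acetylglucosamine. In cartilage, which is rich in sulfated aggrecan bound to hyaluronan, loss of SLC26A2 in humans causes chondrodysplasias and loss of Papss2 causes the brachymorphic phenotype of mice.

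Grem1+ arrays had higher values for the sulfate transporter Slc26a2, the PAPS synthase Papss2, both UDP-sugar enzymes and the hyaluronan synthase Has2. Of the 18 probe sets, 15 lay above log2 4 on at least 3 of the 6 arrays and were tested, and 10 of these were called higher in Grem1+ and 0 lower. A probe set is called where the adjusted p in limma, with the mouse as a block, is under 0.05 over all 18157 named probe sets tested, of which 10.1% were called higher and 7.76% lower. The 10 calls fell in 5 of the 9 genes, and no probe set of Papss1, Slc35b2 or Has1 was called. The single Has3 probe set, 1 of 4 for Papss2 and 1 of 2 for Has2 were too low to be tested. Of the 15 tested, 11 had all Grem1+ arrays above all Grem1- arrays, which 21.6% of all tested probe sets had. The median difference, always Grem1+ minus Grem1- on the log2 scale, was 2.48 over the 15, against -0.01 over all tested probe sets. With a single probe set per gene, the one with the highest mean, 5 of the 8 tested member genes were called higher, while 11.1% of 10151 genes were called higher and 7.81% lower. Members were chosen with earlier results of these data known, so their counts beside these shares are a description. Has2 passed the filter through its Grem1+ arrays alone.

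**Figure D1:**
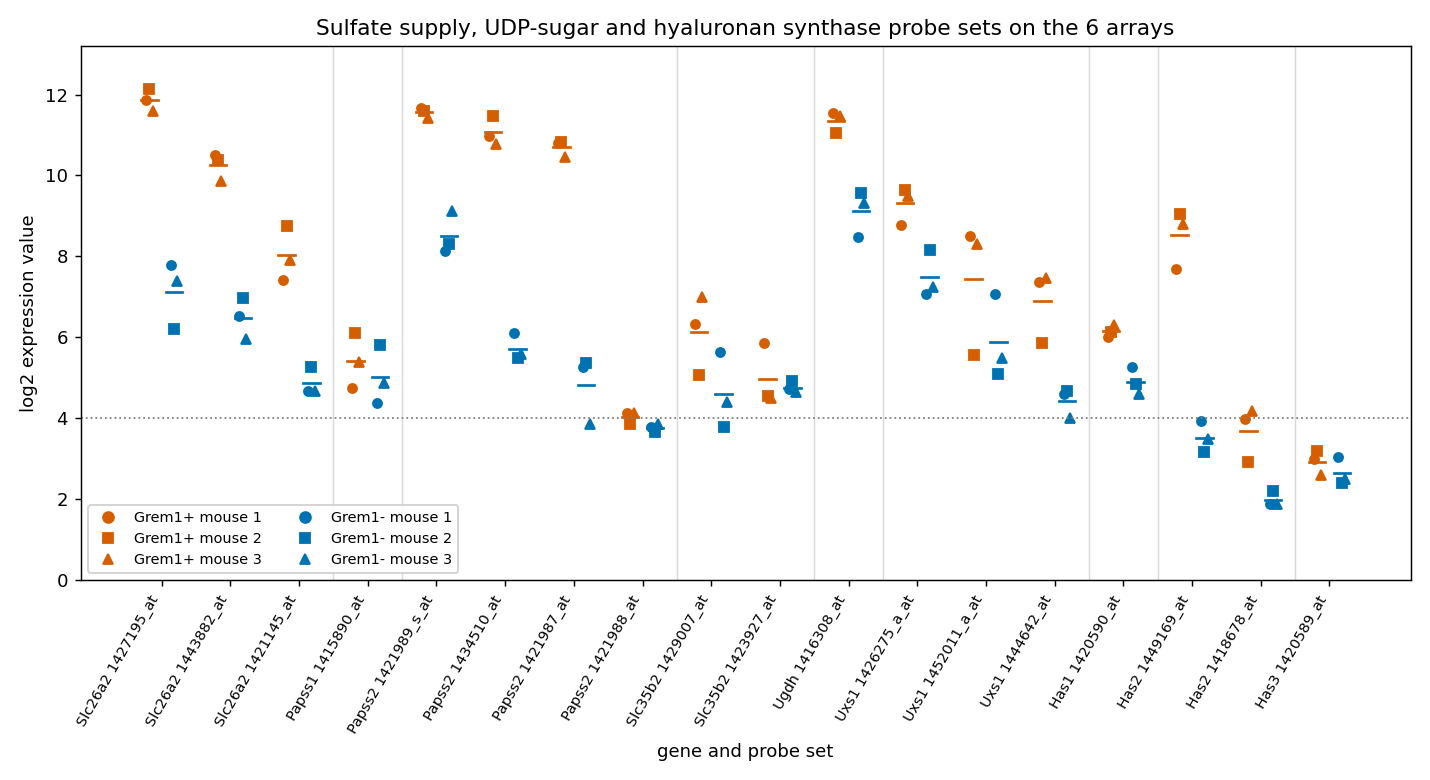
Log2 expression values of the 18 member probe sets, with Grem1+ arrays in orange left of Grem1- arrays in blue, a symbol shape per mouse and a bar for each group mean (n = 3). The dotted line marks log2 4. The 3 Slc26a2 probe sets, 3 of 4 for Papss2, Ugdh and Has2 separate the groups, while Papss1 and Has3 overlap.

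The start regions of Papss2, Papss1, Ugdh and Uxs1 are shown because the first pair encode the same activity and differed in their values, and the others encode consecutive enzymes that were both called. Each line gives the 200 bases before the outermost annotated start, 5' to 3' on the gene's strand, from RefSeq's promoter table (GRCm38.p6), and capitals mark GGGCGG or its reverse complement CCGCCC, the GC box letters.
Papss2, chr19:32595469-32595668, plus strand: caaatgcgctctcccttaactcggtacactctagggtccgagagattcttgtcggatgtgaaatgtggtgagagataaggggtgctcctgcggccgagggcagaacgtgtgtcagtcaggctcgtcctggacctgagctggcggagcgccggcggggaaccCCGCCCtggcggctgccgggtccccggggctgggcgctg
Papss1, chr3:131564564-131564763, plus strand: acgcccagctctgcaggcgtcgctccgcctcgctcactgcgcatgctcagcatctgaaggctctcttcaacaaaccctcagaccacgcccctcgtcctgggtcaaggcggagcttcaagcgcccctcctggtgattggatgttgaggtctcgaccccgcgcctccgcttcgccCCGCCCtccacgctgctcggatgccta
Ugdh, chr5:65435843-65436042, minus strand: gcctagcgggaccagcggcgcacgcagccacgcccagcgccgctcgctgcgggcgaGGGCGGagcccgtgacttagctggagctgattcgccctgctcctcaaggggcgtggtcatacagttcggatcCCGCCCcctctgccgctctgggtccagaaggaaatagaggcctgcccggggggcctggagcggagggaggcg
Uxs1, chr1:43827840-43828039, minus strand: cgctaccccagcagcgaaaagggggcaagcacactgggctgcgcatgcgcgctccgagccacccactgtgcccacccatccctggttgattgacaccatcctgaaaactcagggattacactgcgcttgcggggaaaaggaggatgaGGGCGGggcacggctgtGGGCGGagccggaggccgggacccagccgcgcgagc
A match was found once each for Papss2 and Papss1 and 2 times each for Ugdh and Uxs1. Of 8 member windows searched, 4 held a match, and these are the ones printed. The windows of Slc35b2 and Has1, and those of the second annotated starts of Papss1 and Papss2, held none. These letters occur on either strand in 31.0% of all 32851 windows of this length in the table. TATAAA, the TATA box letters, and ACAAAG and ACAATG, core letters bound by SOX factors, were searched on both strands as well. They are in none of the 8 member windows. They occur in 10.0%, 13.3% and 8.6% of all windows. Windows of 6 of the 9 genes were used here, and none was used for Slc26a2, Has2 or Has3. Member windows on a single chromosome were dropped before counting, so a gene without a window here can still have an entry. The GC content of the 4 printed windows was 65.5% for Papss2, 65.5% for Papss1, 71.5% for Ugdh and 67.0% for Uxs1, against a median of 53.0% over all windows. In the other member windows it was 60.5% for Slc35b2, 57.5% for Has1, and 49.0% and 46.5% for the second starts of Papss1 and Papss2.

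Some arrays went against their labels, and marker genes of blood cells moved with the comparison. Grem1 had log2 values of 4.49, 4.14 and 8.61 in Grem1+ mice 1, 2 and 3, against 3.69, 3.75 and 3.70 in Grem1-, and was not called (difference 2.04, SE 1.02, limma adjusted p = 0.245). Ptprc, the gene of CD45, had 7.29, 9.61 and 10.56 in Grem1+ and 12.13, 11.78 and 12.37 in Grem1-, although that fraction was gated as negative for CD45 (difference -2.94, SE 0.71, limma adjusted p = 0.0603). All mice are labelled male, but Xist was at 10.60 and 11.04 in the Grem1+ and Grem1- arrays of mouse 3 and did not exceed 2.99 elsewhere, so differences without mouse 3 are given for each tested probe set below. The median log2 value of 19 chondrocyte markers ran from 10.96 to 11.04 in Grem1+, against 6.44 to 7.14 in Grem1-, with 16 of 19 called higher and none below log2 4 throughout a group. That of 10 pan-haematopoietic markers ran from 5.66 to 6.57 in Grem1+, against 9.50 to 10.13 in Grem1- (7 of 10 called lower, with Cd37 below log2 4 on all Grem1+ arrays), and that of 9 granulocyte markers from 6.97 to 9.12 in Grem1+, against 11.23 to 11.40 in Grem1- (6 of 9 called lower). Endothelial markers had medians from 3.00 to 3.40 in Grem1+, against 3.70 to 3.91 in Grem1-, and Cdh5, Kdr and Emcn were below log2 4 on all 6 arrays. Pecam1, the gene of CD31, had 3.71, 3.39 and 2.81 in Grem1+ and 5.25, 4.23 and 4.91 in Grem1- (limma adjusted p = 0.0638). The Grem1- gate was negative for CD31 and Ter-119. Tek, too, was above log2 4 on all Grem1- arrays and on no Grem1+ array. Erythroid medians ran from 3.45 to 3.70 in Grem1+, against 4.87 to 5.42 in Grem1-, with 2 of 3 tested genes called lower. Slc4a1 had 10.63, 10.36 and 10.35 in Grem1-. Pecam1, Tek and Slc4a1 were picked after their values were seen. The gap between the 3' and 5' control probe sets of Gapdh, which widens as RNA shortens, was 2.98, 3.88 and 3.87 in Grem1+ and 2.31, 2.99 and 2.68 in Grem1-. The part of these in the differences below was not tested, and in bulk RNA fewer cells of a type and less RNA per cell cannot be told apart.

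**Figure D2:**
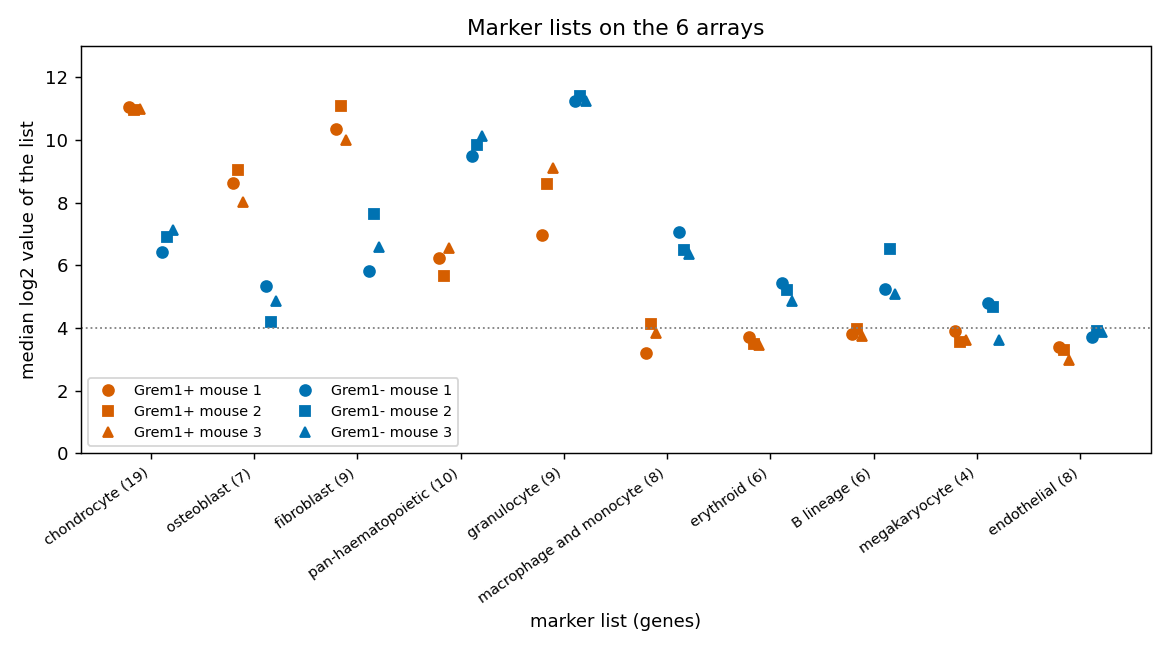
Median log2 value of each marker list (number of genes in brackets) on each array, with Grem1+ in orange left of Grem1- in blue and a symbol shape per mouse. The dotted line marks log2 4. Chondrocyte, osteoblast and fibroblast medians were higher in Grem1+ and all blood cell medians lower, except that of the megakaryocyte list in mouse 3, where Grem1+ was at 3.63 and Grem1- at 3.62.

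Sulfate uptake was represented by Slc26a2, the sulfate and anion exchanger of the plasma membrane that chondrocytes depend on. Probe set 1427195_at stood at 11.86, 12.15 and 11.59 in Grem1+ mice 1, 2 and 3, against 7.79, 6.21 and 7.38 in Grem1-. Every Grem1+ array was above every Grem1- array, and the difference was 4.74 (SE 0.49, limma adjusted p = 0.0133), a 26.6-fold higher level. The other probe sets showed the same separation at lower values. Probe set 1443882_at had 10.502, 10.385 and 9.85 in Grem1+ and 6.53, 6.96 and 5.97 in Grem1-, a difference of 3.76 (SE 0.30, limma adjusted p = 0.00992). Probe set 1421145_at had 7.43, 8.76 and 7.91 in Grem1+ and 4.67, 5.28 and 4.67 in Grem1-, a difference of 3.16 (SE 0.31, limma adjusted p = 0.0123). All 3 measures of the gene were thus called, with differences between 3.16 and 4.74, and without mouse 3 they were 5.002, 3.70 and 3.12 in the same order.

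The genes of the PAPS synthases, which activate sulfate, differed in their values. Papss2 was called higher on all 3 of its tested probe sets, with the widest spread of differences among the 4 genes that had more than 1 tested probe set. Probe set 1421987_at stood at 10.81, 10.82 and 10.44 in Grem1+ and at 5.26, 5.37 and 3.87 in Grem1-, a difference of 5.86 (SE 0.37, limma adjusted p = 0.00992) that ranked 78 of 18157 from the largest positive difference down. Its Grem1+ arrays lay close together, and the gap to Grem1- was 5.55, 5.44 and 6.58 in mice 1, 2 and 3. Probe set 1434510_at had 10.97, 11.47 and 10.77 in Grem1+ and 6.11, 5.48 and 5.59 in Grem1-, a difference of 5.34 (SE 0.36, limma adjusted p = 0.00992). Probe set 1421989_s_at had 11.66, 11.60 and 11.43 in Grem1+ and 8.12, 8.30 and 9.13 in Grem1-, a difference of 3.05 (SE 0.38, limma adjusted p = 0.0173). Its smaller difference came with Grem1- values above log2 8. The untested probe set 1421988_at stayed between 3.66 and 4.13 on all arrays. Without mouse 3 the differences of the tested probe sets were 5.499, 5.42 and 3.42 in the same order.

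Papss1, the other PAPS synthase, had a single probe set, at 4.76, 6.11 and 5.40 in Grem1+ and at 4.39, 5.81 and 4.88 in Grem1-. The groups overlapped, and both fractions of mouse 2 were the highest of their group. The difference of 0.39 (SE 0.28, limma adjusted p = 0.391) was not called, with a 95% interval from -0.36 to 1.14, and it was 0.33 without mouse 3. The Papss2 difference taken on 1421989_s_at, its probe set of highest mean, exceeded that of Papss1 by 3.17, 3.01 and 1.79 in mice 1, 2 and 3 (mean 2.65, SD 0.76, exact two-sided sign-flip permutation p = 0.25, the smallest that 3 mice allow). On 1434510_at and 1421987_at this gap averaged 4.95 and 5.46, and it was positive in all 3 mice with each. The windows of both genes printed above hold the same number of matches to the GC box letters. Any part of these letters in the gap was not tested.

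Slc35b2, a carrier of PAPS into the Golgi, was not called. Probe set 1429007_at had 6.32, 5.07 and 6.99 in Grem1+ and 5.65, 3.79 and 4.40 in Grem1-. Grem1+ was higher within each mouse, by 0.67, 1.28 and 2.59, but the groups overlapped. The difference was 1.52 (SE 0.47, limma adjusted p = 0.102), with a 95% interval from 0.24 to 2.79, and 0.98 without mouse 3. Probe set 1423927_at had 5.86, 4.56 and 4.51 in Grem1+ and 4.72, 4.91 and 4.65 in Grem1-, so that Grem1+ was higher in mouse 1 alone. Its difference of 0.22 (SE 0.42, limma adjusted p = 0.765) had a 95% interval from -0.92 to 1.36, was 0.40 without mouse 3 and turned to -0.24 without mouse 1.

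**Figure D3:**
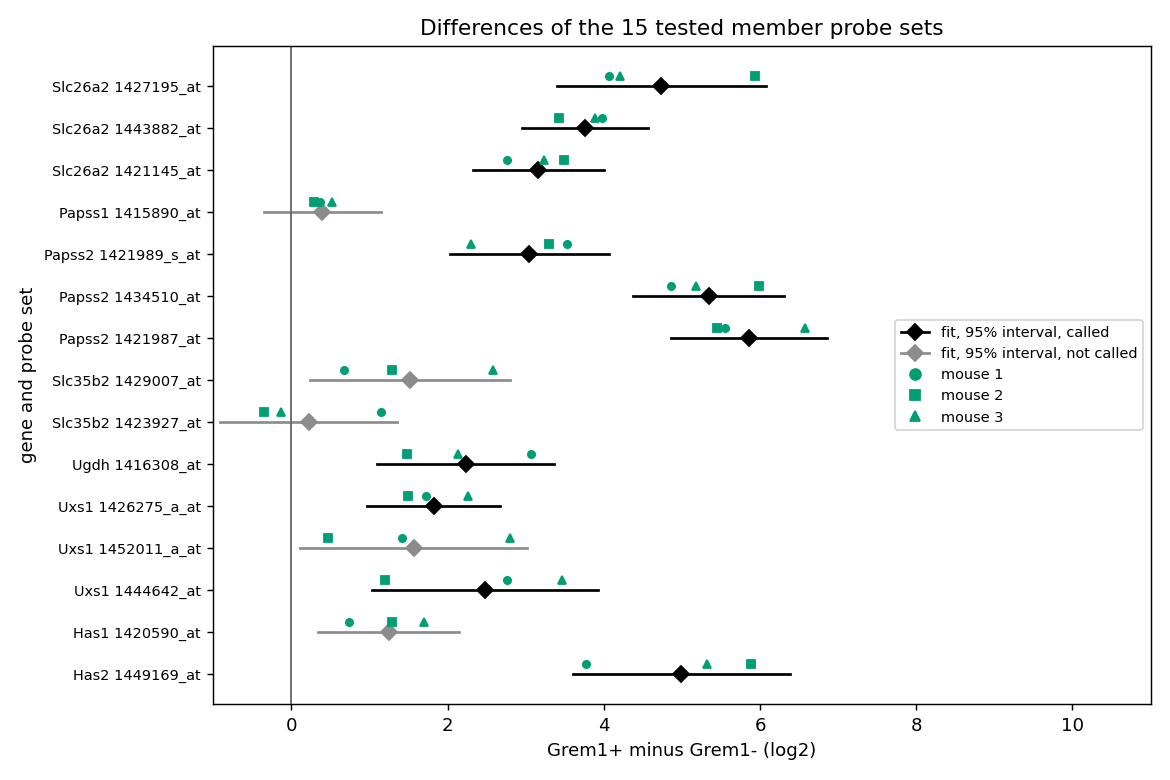
Grem1+ minus Grem1- differences (log2) of the 15 tested probe sets, with diamonds and lines for the fitted difference and its 95% interval (black where called, grey where not) and green symbols for each mouse. The Slc26a2, Papss2 and Has2 intervals lie above 2, and the intervals of Papss1 and of 1 Slc35b2 probe set cross 0.

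The UDP-sugar enzymes were both called, with smaller differences than Slc26a2 or Papss2. Ugdh, the source of UDP-glucuronic acid, stood at 11.54, 11.05 and 11.46 in Grem1+ and at 8.47, 9.57 and 9.32 in Grem1-. Every Grem1+ array was above every Grem1- array, and the difference was 2.23 (SE 0.42, limma adjusted p = 0.0357), a 4.69-fold higher level. Uxs1, the UDP-xylose synthase, had 8.78, 9.65 and 9.50 in Grem1+ and 7.07, 8.17 and 7.24 in Grem1- on probe set 1426275_a_at, a difference of 1.82 (SE 0.32, limma adjusted p = 0.0305). Probe set 1444642_at had 7.36, 5.87 and 7.47 in Grem1+ and 4.59, 4.67 and 3.9998 in Grem1-, a difference of 2.48 (SE 0.53, limma adjusted p = 0.0480) that was just within the threshold. On both the groups were separate, with mouse 2 showing the smallest gap. Probe set 1452011_a_at had 8.499, 5.56 and 8.30 in Grem1+ and 7.09, 5.09 and 5.5004 in Grem1-, where the mouse 2 array of Grem1+ fell among the Grem1- arrays, and its difference of 1.56 (SE 0.54, limma adjusted p = 0.124) was not called. Without mouse 3 the difference was 2.28 for Ugdh and 1.60, 1.98 and 0.94 for Uxs1 on 1426275_a_at, 1444642_at and 1452011_a_at. With every named probe set tested and no filter on low values, Ugdh and 1444642_at lost their calls (limma adjusted p = 0.0740 and 0.109), and 1444642_at also lost it under quantile normalization (0.0512) and cyclic loess (0.0520).

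The hyaluronan synthases differed among themselves. Has2, the synthase required for heart and limb development in mice, stood at 7.70, 9.06 and 8.81 in Grem1+ on probe set 1449169_at, against 3.93, 3.17 and 3.49 in Grem1-. Every Grem1- array was below log2 4, the level taken here as dim, so only a lower limit can be stated. With such values raised to 4, Has2 was at least 22.9-fold higher in Grem1+ (limma adjusted p = 0.0131 on the values as measured, difference 4.99, SE 0.51). This probe set passed the filter through its Grem1+ arrays alone, and with all named probe sets tested and no filter its adjusted p in limma was 0.0367. Without mouse 3 the measured difference was 4.83. The second Has2 probe set, 1418678_at, had 3.98, 2.94 and 4.18 in Grem1+ and 1.90, 2.22 and 1.87 in Grem1-, with a single array above log2 4, and was not tested.

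Has1, a synthase of the same family, had 6.02, 6.13 and 6.31 in Grem1+ and 5.28, 4.84 and 4.61 in Grem1-. The groups were separate and Grem1+ was higher in each mouse, yet the difference of 1.24 (SE 0.33, limma adjusted p = 0.0747) was not called, with a 95% interval from 0.34 to 2.15. Has1 was called at the same difference without the replicate block (limma adjusted p = 0.0277) and in a fit on the mean of each gene's tested probe sets (limma adjusted p = 0.0457), and without mouse 3 the difference was 1.02. Has3 was dim on all 6 arrays, at 2.995, 3.19 and 2.61 in Grem1+ and 3.06, 2.41 and 2.50 in Grem1-. With Has2 values below log2 4 raised to 4, a setting chosen after seeing the data, the Has2 difference exceeded that of Has1 by at least 2.96, 3.76 and 3.11 in mice 1, 2 and 3 (mean 3.28).

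**Figure D4:**
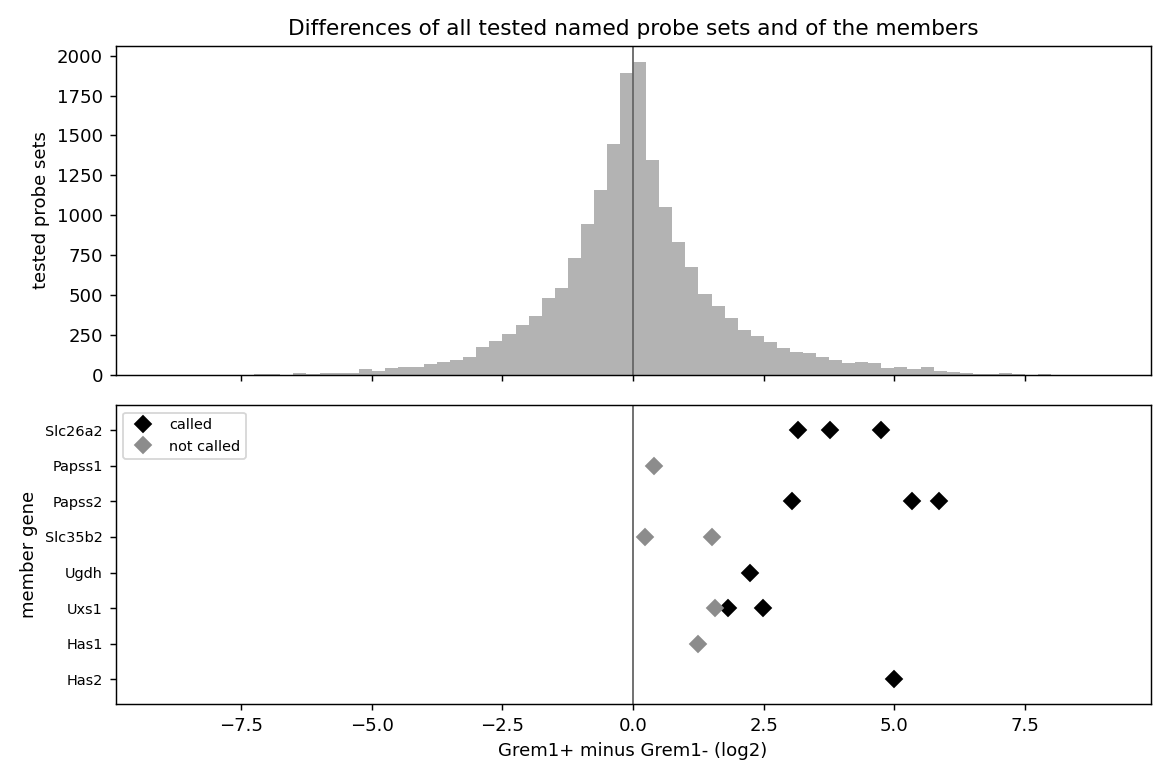
Upper panel, number of tested probe sets by Grem1+ minus Grem1- difference (log2, bins of 0.25) for all 18157. Lower panel, the tested probe sets of each member gene on the same axis, black where called and grey where not. Every member lies right of 0, and the probe sets of Papss2 spread from 3.05 to 5.86.

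The member calls were recomputed with a mouse left out. With the block kept, such fits have 1 residual degree of freedom, and without mouse 1, 2 or 3 limma called 0 of all 18157 probe sets, so the loss of the member calls there says nothing about a single mouse. In those fits 5158, 5085 and 4967 had an unadjusted p under 0.05, and the 10 called members had adjusted p-values from 0.0516 to 0.154 without mouse 1, from 0.0566 to 0.0943 without mouse 2 and from 0.0637 to 0.159 without mouse 3. All 10 kept a positive difference in each of these fits. Without the block, an alternative chosen after seeing the data, 7, 9 and 7 of the 10 were called with mouse 1, 2 or 3 left out. Ugdh, 1426275_a_at and 1444642_at were the losses without mouse 1 and again without mouse 3, and 1426275_a_at was the loss without mouse 2.

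The genes whose profiles were nearest to Papss2 on 1421987_at, by Euclidean distance between log2 profiles over the 6 arrays after subtracting each profile's mean, were Bmp2 (distance 0.57), Krt16 (0.75) and Kif26b (0.75), of 10150 genes. Bmp2, a bone morphogenetic protein, had 9.68, 9.14 and 9.0006 in Grem1+ and 4.06, 3.69 and 2.71 in Grem1-. Krt16, a keratin, had 9.95, 10.40 and 9.67 in Grem1+ and 4.21, 4.64 and 3.74 in Grem1-. Kif26b, a kinesin family member, had 9.18, 8.82 and 8.09 in Grem1+ and 3.17, 3.30 and 2.43 in Grem1-. In Grem1-, Kif26b was below log2 4 on all arrays, Bmp2 in mice 2 and 3, and Krt16 in mouse 3. The distances thus rest in part on dim values, and on the size of the difference between the groups.

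Other genes of the same routes were read from 8 lists, each gene through its passing probe set of highest mean. Of 79 listed genes on the array 54 were tested, and 17 were higher and 2 lower in Grem1+. Over all 10151 genes 11.1% were called higher and 7.81% lower, with a median difference of 0.04, and the counts of each list below are read beside these shares. The lists were chosen with earlier results of these data known, so this reading describes and does not test. Among 12 tested genes that make UDP-sugar precursors, 5 were higher and 0 lower, with a median of 0.998. Gfpt2, which commits fructose 6-phosphate to the hexosamine route towards UDP-N-acetylglucosamine, had 10.41, 10.31 and 10.21 in Grem1+ and 4.86, 4.88 and 6.51 in Grem1-, a difference of 4.90 (SE 0.49, limma adjusted p = 0.0126). The groups were separate. Pgm3 and Uap1, later enzymes of that route, differed by 3.24 (SE 0.47) and 1.97 (SE 0.35), and Pgm2 by 1.88 (SE 0.39). Gnpnat1, another gene of the list, was not called, at -0.13 (SE 0.65), and its 4 tested probe sets ranged from -0.13 to 1.68. Ugp2, the enzyme that makes the UDP-glucose used by Ugdh, was at 8.90 ± 0.31 in Grem1+ and 8.65 ± 0.13 in Grem1- (SD, n = 3), and its 5 probe sets ranged from -1.20 to 0.27. The Ugp2 and Gnpnat1 values were picked after they were seen. Pgm3 and Uap1 lost their calls without the filter on low values (adjusted p = 0.0556 and 0.0551), and Pgm2 there and with a trended and robust variance model (highest adjusted p 0.0835).

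Genes that use or recycle PAPS rose in part. Of 6 tested genes of sulfate transport, PAP recycling and sulfatase activation, 2 were higher and 0 lower, with a median of 0.93. Both recycle PAP, the product left when PAPS has given up its sulfate. Bpnt1, the cytosolic PAP phosphatase, had 6.35, 7.14 and 6.52 in Grem1+ and 3.48, 4.59 and 3.88 in Grem1-, a difference of 2.69 (SE 0.28). Bpnt2, its Golgi counterpart, whose loss causes a chondrodysplasia in humans, had 11.66, 10.99 and 11.73 in Grem1+ and 9.80, 9.29 and 10.12 in Grem1-, a difference of 1.72 (SE 0.28). In both the groups were separate. Of 11 cytosolic and tyrosylprotein sulfotransferases on the array 2 were tested, and both were higher: Tpst1 by 1.90 (SE 0.28) and Tpst2 by 1.43 (SE 0.29), the Golgi enzymes that sulfate tyrosines of proteins. Tpst2 lost its call with the trended and robust variance model (adjusted p = 0.0763). Of 5 tested lysosomal sulfatases Ids, which removes sulfate from iduronic acid, was the only one called, at a difference of 3.35 (SE 0.37), and the median was 0.40.

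Some of the listed carriers of the Slc35 family and linkage region enzymes were higher in Grem1+, and 2 carriers were lower. Xylt1 and Xylt2, also on the linkage list, were not tested. Of 10 tested carriers 3 were higher and 2 lower, with a median of 0.72. Slc35d1, a carrier of UDP-glucuronic acid that chondroitin sulfate synthesis in cartilage needs, had 6.92, 6.07 and 6.00 in Grem1+ and 3.72, 4.40 and 3.33 in Grem1-, a difference of 2.51 (SE 0.41). Its arrays did not overlap between the groups. Slc35a1, the CMP-sialic acid carrier, differed by 2.83 (SE 0.30) and Slc35b1 by 2.27 (SE 0.43), while Slc35a5 differed by -4.26 (SE 0.41), with 3 probe sets from -4.26 to -1.22. The other lower gene was Slc35c1, the GDP-fucose carrier, at -1.39 (SE 0.28), which the naming rule did not take and which was picked after its value was seen. Of 5 tested genes of the linkage region 2 were higher and 0 lower, with a median of 1.54: Fam20b, the xylose kinase, at 2.38 (SE 0.32) and B4galt7, which adds the first galactose to xylose, at 1.56 (SE 0.33). While 4 of the 5 had a positive difference, B3gat3 was at -2.20 (SE 0.62, limma adjusted p = 0.083) and was not called. Its 2 tested probe sets ranged from -2.20 to 0.02, and it was picked after its value was seen. Slc35d1 and Slc35b1 lost their calls without the filter on low values (adjusted p = 0.0595 and 0.0785), B4galt7 there and with the trended and robust variance model (highest adjusted p 0.0707), and Slc35c1 with the trended and robust variance model (adjusted p = 0.0690).

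Among genes that bind or degrade hyaluronan, 1 of 9 and 1 of 5 were called higher, beside 11.1% of all genes. Of the tested genes of hyaluronan binding and uptake only Hapln1, the link protein that ties aggrecan to hyaluronan and is also on the chondrocyte list, was called, at a difference of 3.00 (SE 0.33), and the median was 0.23. Cd44, the main hyaluronan receptor, was at 10.54 ± 0.15 in Grem1+ and 10.72 ± 0.40 in Grem1- (SD, n = 3) with a difference of -0.18 (SE 0.29, limma adjusted p = 0.722), and was picked after its values were seen. Of those of hyaluronan breakdown only Cemip, a protein needed for hyaluronan depolymerisation, was called. It had 8.24, 8.79 and 8.10 in Grem1+ and 3.62, 2.98 and 4.90 in Grem1-, a difference of 4.55 (SE 0.58), which was 4.08 with values below log2 4 set to 4, and its call was lost without the filter on low values (adjusted p = 0.0521). The list's median was 0.09.

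**Figure D5:**
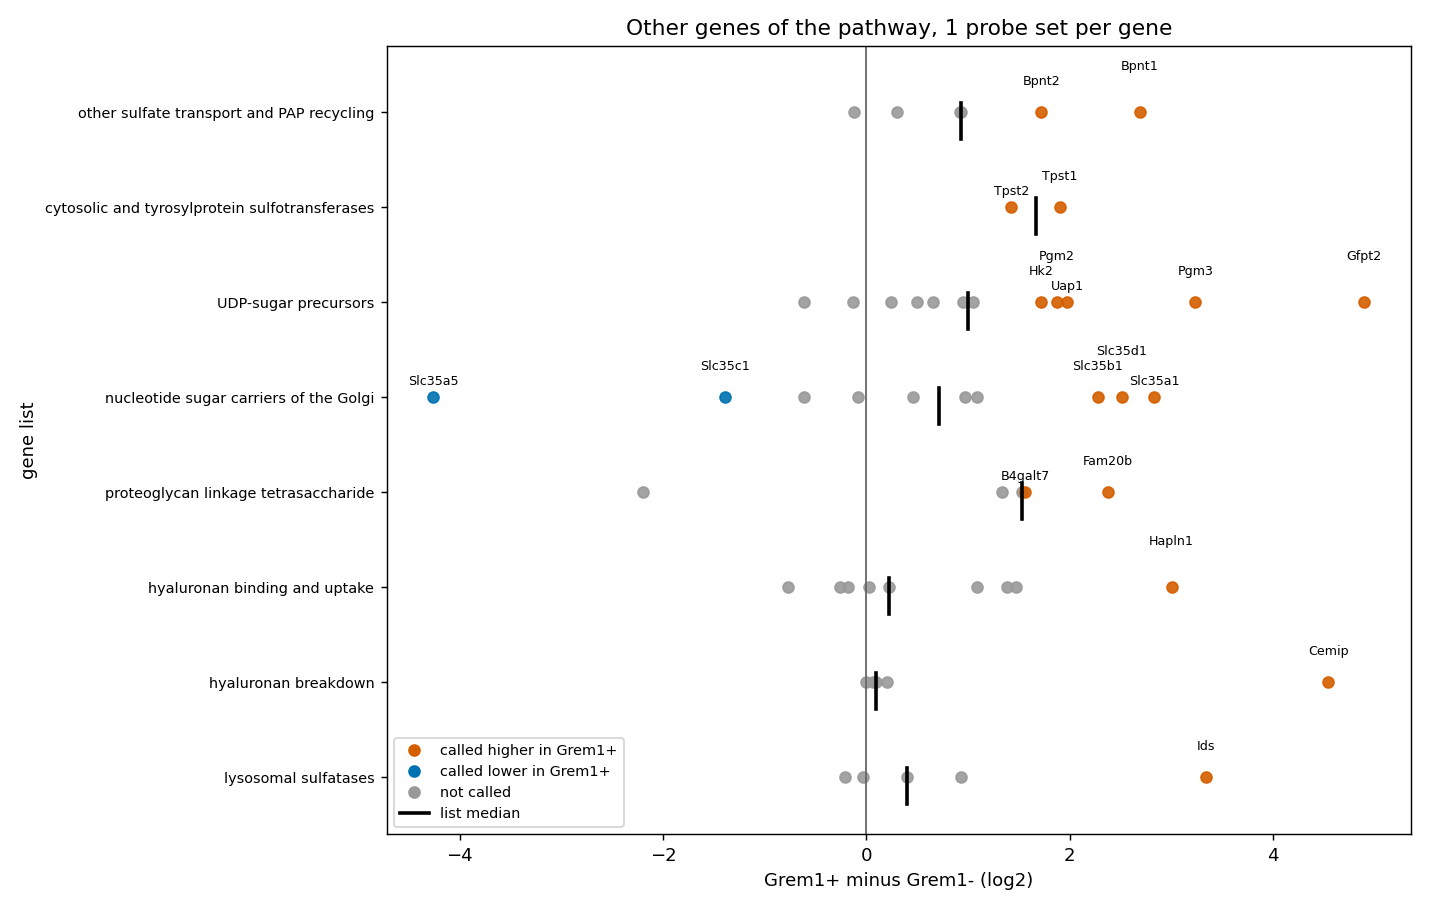
Grem1+ minus Grem1- differences (log2) of the 54 tested genes in 8 lists of other pathway genes, orange where called higher, blue where called lower and grey where not called, with called genes labelled and a black bar at each list's median. Medians run from 0.09 for hyaluronan breakdown to 1.67 for the sulfotransferases, and Slc35a5 and Slc35c1 are the lower genes.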

How the data were processed

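RNA of each sorted marrow fraction was extracted, amplified and hybridised to 1 of 6 Affymetrix arrays, per the labels' protocols. The authors deposited log2 values per probe set. GCRMA, a method of background correction, normalization between arrays and summary, is named in the submitters' processing notes. No version of GCRMA was stated in the labels, and the log scale was inferred from the range of the values. Scanner files were not analysed here, and the number of arrays limits the precision. Tests left out the 932 probe sets that carry several symbols and the 9160 that carry none. All 18 member probe sets kept their symbol in RefSeq's gene table (GRCm38.p6).

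Probe sets above log2 4, a chosen limit, on at least 3 of 6 arrays were tested with limma 3.58.1 (R 4.3.3, lmFit and eBayes, two-sided, Benjamini-Hochberg over 18157 probe sets, threshold 0.05). The mouse was a block, since the series design says the fractions are matched by animal. Deviations from group means correlated at 0.014, 0.052 and 0.031 between the fractions of mice 1, 2 and 3. Residual degrees of freedom were 2 and prior ones 2.28. The code was tested on simulated data. Alternatives changed the block, filter, floor, probe set choice, normalization, variance model and mice. Members and lists were chosen with earlier results of these data known. The text names all members, up to 4 called genes per list with the largest absolute difference, the 3 nearest profiles, Grem1 and Ptprc, and Xist and other stated genes after their values were seen.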

Additional observations from a re-analysis of the deposited data

How the results depend on the processing

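The 10 member calls among 15 probe sets, with 0 lower, became 11 without the replicate block, 8 of 18 without the filter on low values and 5 of 8 with 1 probe set per gene. All named probe sets called numbered 3235, against 1761 without the filter and 2055 with 1 probe set per gene. Pathway genes called numbered 19 of 54, against 12 of 79 without the filter and 20 without the replicate block, and the remaining single-setting alternatives gave 16 to 23. With a mouse left out, with or without the block, member calls ranged from 0 to 9, all calls from 0 to 1927 and pathway calls from 0 to 13, and 0 arose in each fit with the block, where 1 residual degree of freedom was left. Slc35b2 on 1423927_at then ranged from -0.24 to 0.50. The gap between Papss2 and Papss1 was 2.65, against 4.95 on 1434510_at and 5.46 on 1421987_at. The block changed no other member's call than that of Has1, which was also called on gene means, where 6 of 8 member genes were. For Has3 and the 2 other untested probe sets, whose values lie near or below log2 4, low signal over background limits any comparison.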

Other observations

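Probe sets designed from the same deposited sequence record gave different values, a comparison chosen after the values were seen. For Papss2, 1421987_at, 1421989_s_at and 1421988_at share a record and differed by 5.86, 3.05 and 0.27 between Grem1+ and Grem1-, the last on values near log2 4. For Uxs1, 1426275_a_at and 1452011_a_at share a record, and in Grem1+ mouse 2 they stood at 9.65 and 5.56, while in Grem1+ mouse 1 they stood at 8.78 and 8.499. Among other pathway genes, the tested probe sets of Cemip ranged from 0.14 to 4.55, those of Ids from 0.97 to 4.54, those of Gfpt1, a paralogue of Gfpt2, from 1.05 to 3.24, and those of B3galt6, a linkage region galactosyltransferase, from 1.54 to 4.20. The mean over the tested probe sets of each gene gave differences of 4.75 (SE 0.25) for Papss2, 3.89 (SE 0.28) for Slc26a2, 1.95 (SE 0.42) for Uxs1 and 0.87 (SE 0.29) for Slc35b2. In that fit, adjusted over gene means and chosen for the members after seeing the data, 6 of 8 member genes were called higher, Has1 among them, while Papss1 and Slc35b2 were not called.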
